A study of Mus musculus with 9 samples.

Results

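Circular RNAs (circRNAs, closed loops in which an exon end is joined backwards to the start of the same or an earlier exon) were followed here for genes that encode RNA helicases and RNA-binding proteins, in mouse C2C12 myoblasts that were turning into myotubes. A host is the gene a circRNA comes from. Hosts were taken by symbol, as every gene whose name starts with Ddx, Dhx, Hnrnp, Rbm, Srsf, Celf, Mbnl, Rbfox, Elavl or Cpeb, without Rbm20, Celf2 and Hnrnpll. This gave 89 of the 6943 hosts in the table and 423 of its 37751 circRNAs. They comprised 26 Ddx, 15 Dhx, 17 Rbm, 12 Hnrnp, 7 Srsf, 4 Cpeb, 3 Mbnl, 2 Rbfox, 2 Elavl and 1 Celf hosts. The prefix Rbm also takes Rbms1, Rbms2, Rbms3 and Rbmx. Ddx and Dhx hosts, Ddx11 and Dhx58 among them, were likewise taken by name alone, and not each need be a DEAD-box or DEAH-box RNA helicase.

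C2C12 is an established line of myoblasts from mouse skeletal muscle. Cells grew in medium with 10% fetal bovine serum and were collected while proliferating at 70 to 80% confluence (day 0), or 3 and 6 days after confluent cultures were moved to 2% horse serum, which starts differentiation and fusion. Each time point had 3 libraries of total RNA, 9 in all, and the labels name no genetic change or further agent. The labels do not tell whether separate cultures were used within a time point; p-values therefore reflect the variation among these libraries, and that variation may be technical.

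The proteins behind these names handle RNA at every stage of its life. DEAD-box (Ddx) and DEAH-box (Dhx) helicases use ATP to unwind RNA or to remodel RNA-protein complexes, and several drive the steps of the spliceosome or of ribosome assembly. SR proteins (Srsf) and hnRNP proteins (Hnrnp) coat pre-mRNA and steer exon choice, while muscleblind (Mbnl), CELF and Rbfox proteins are known for the splicing switches of developing muscle. Hu proteins (Elavl) and CPEB proteins act on the stability and translation of mRNA. Muscleblind is also known for promoting a circle from its own transcript.

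A circRNA is identified by its back-splice junction, where the 3′ end of its last exon meets the 5′ start of its first. The junctions below belong to circles described further on, chosen among the named circRNAs whose ends lie in 1 annotated transcript and whose flanks are coding, and they show which exon ends were joined. Each line gives the last 30 bases of the last exon and then the first 30 bases of the first exon, 5′ to 3′ on the strand of the host, as DNA letters from the GENCODE M21 transcripts (GRCm38). Capitals mark the 6 bases on each side of the join.
Dhx15 exons 2 to 3, chr5:52180982-52184903, minus strand: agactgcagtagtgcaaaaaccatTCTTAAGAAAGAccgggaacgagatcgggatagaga
Rbms1 exons 3 to 6, chr2:60779731-60797742, minus strand: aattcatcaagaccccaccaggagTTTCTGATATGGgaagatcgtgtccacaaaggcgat
Rbms1 exons 2 to 6, chr2:60779731-60842472, minus strand: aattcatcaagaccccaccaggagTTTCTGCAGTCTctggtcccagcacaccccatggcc
Rbms1 exons 2 to 4, chr2:60792689-60842472, minus strand: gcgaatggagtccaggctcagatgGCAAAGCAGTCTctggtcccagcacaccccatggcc
Rbm33 exons 2 to 5, chr5:28331111-28339308, plus strand: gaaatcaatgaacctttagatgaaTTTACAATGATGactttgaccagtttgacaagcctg
Rbm33 exons 8 to 10, chr5:28358274-28368313, plus strand: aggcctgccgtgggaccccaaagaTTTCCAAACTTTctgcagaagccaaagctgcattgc
Mbnl1 exons 3 to 4, chr3:60595594-60603894, plus strand: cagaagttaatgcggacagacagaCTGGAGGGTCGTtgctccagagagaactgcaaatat
Ddx17 exons 2 to 4, chr15:79541034-79543856, minus strand: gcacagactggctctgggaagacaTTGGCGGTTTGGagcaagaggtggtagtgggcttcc
Rbfox2 exons 3 to 5, chr15:77113605-77132941, minus strand: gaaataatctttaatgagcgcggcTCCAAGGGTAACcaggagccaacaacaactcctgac

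The 3 Rbms1 junctions share their parts. The circles of exons 3 to 6 and 2 to 6 end in the same 30 bases of exon 6, and those of exons 2 to 6 and 2 to 4 start in the same 30 bases of exon 2, so only the full junction tells them apart. Junctions were read in this way for 11 named circRNAs. The named Rbm27 circle of exons 12 to 14 also has its ends in 1 transcript and is wholly coding, but was left out. Of the 11 circles read, 0 had a 30-base flank that also occurred in an annotated transcript of another gene. A junction that occurred in a linear transcript was found for 0 of the 11.

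Over the 9 libraries the 89 hosts held 23038 back-splice reads, 0.860% of all. The share was 0.944, 1.01 and 0.985% in the libraries of day 0, 0.823, 0.792 and 0.786% at day 3 and 0.847, 0.722 and 0.862% at day 6. Library totals ran from 208787 to 443955 back-splice reads. Reads were uneven between hosts: the top 5 held 45.3% and the top 20 held 82.8%, and the median host had 56 reads and 3 circRNAs, the same as the medians of all hosts. Of the hosts, 22 had reads in all 9 libraries and 28 in 1 library only. Between 34 and 56 of these hosts were listed in a library, with 34 and 35 in replicates 1 and 2 of day 6, which also had totals of 208787 and 243471 reads.

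Levels are given in CPM, the reads of a host or circle per 1000000 back-splice reads of its library after adjustment by TMM factors, and they count junctions, so they do not grow with the length of a circle. Fewer cells of a type and less RNA per cell cannot be told apart in these bulk libraries. The table holds no linear reads, so a change in a circle and a change in the transcription of its host cannot be told apart either. Summed over all 89 hosts, the level was 9222 ± 491 CPM at day 0, 8271 ± 208 at day 3 and 8323 ± 740 at day 6 (mean ± SD of 3 libraries).

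In edgeR 1 host of the set passed the threshold: circles of Dhx15 were lower at day 6 than at day 0. A host that did not pass is not thereby shown to be unchanged. The low-count filter left 49 of the 89 hosts, with 97.0% of their reads, and 40 hosts were not tested. In edgeR's quasi-likelihood test over all hosts, adjusted for all of them at a threshold of 0.05, 0 of these 49 passed at day 3 against day 0, where 3.96% of all hosts tested passed. At day 6 against day 0 the count was 1 of 49, against 5.66% of all hosts, and at day 6 against day 3 it was 0 of 49, against 0.0729%. At an unadjusted p under 0.05 there were 4, 7 and 2 of the 49 hosts in the same order, where 13.5, 17.6 and 5.98% of all hosts tested had such a p. DESeq2 called 1 host at day 3, which was Dhx15, then 3 at day 6 against day 0, namely Dhx15, Rbms1 and Rbm25, and 0 at day 6 against day 3. Of all hosts given to it, DESeq2 called 7.05, 11.3 and 0.486% in these comparisons. It gave no adjusted p to 10, 8 and 11 of the 49 hosts, which therefore could not be called.

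The median log2 fold change of the 49 hosts was -0.28 at day 3 and -0.16 at day 6, both against day 0, where the medians of all hosts tested were -0.02 and -0.13. Between days 3 and 6 it was -0.03, against -0.06. Another scaling moved the median of all hosts: with library totals alone it was -0.15 at day 3 and -0.24 at day 6. Log2 fold changes below are on the main scale and carry an approximate standard error (SE).

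**Figure D1:**
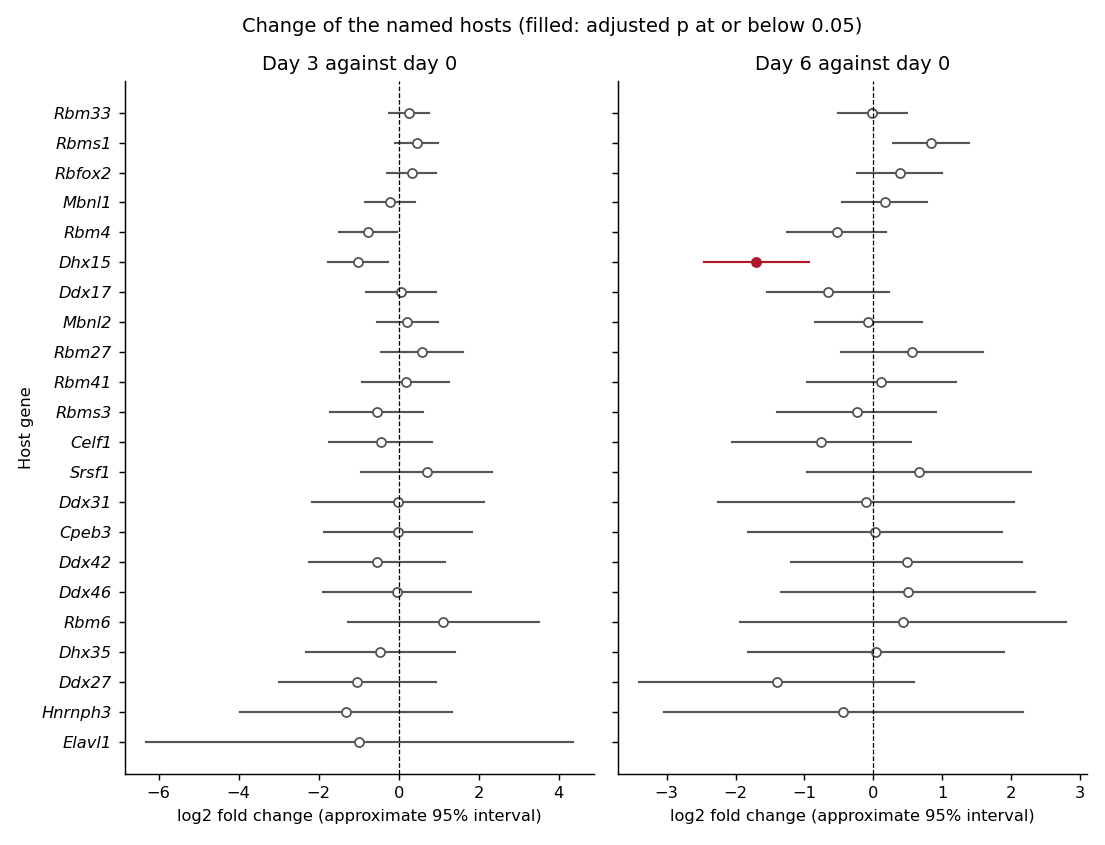
Log2 fold change of the 22 named hosts at day 3 (left) and day 6 (right) against day 0, with approximate 95% intervals from edgeR; filled symbols passed an adjusted p of 0.05. Dhx15 at day 6 is the only filled symbol, at -1.70, and intervals widen toward the bottom, where hosts have fewer reads; Elavl1 has no value at day 6, where it had no reads.

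Among single circRNAs, 1 passed in edgeR, the leading circle of Dhx15. The filter left 93 of the 423, with 82.5% of the reads. At day 3 against day 0, 0 of 93 passed in edgeR, where 1.58% of all circRNAs tested did. At day 6 against day 0 it was 1 of 93, against 1.99%, and at day 6 against day 3 it was 0 of 93, against 0.0613%. Unadjusted p-values under 0.05 numbered 4, 6 and 2, where 9.51, 11.6 and 4.34% of all circRNAs tested had one. DESeq2 called 1, 3 and 0 circRNAs: the leading Dhx15 circle at day 3, and at day 6 that circle, the Rbms1 circle of exons 3 to 6 and a Rbms3 circle. Of all circRNAs given to it, DESeq2 called 3.34, 5.72 and 0.245%. It gave no adjusted p to 49, 48 and 37 of the 93, which therefore could not be called.

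Dhx15 encodes the DEAH-box helicase that takes the spliceosome apart once splicing is done. Its circles stood at 854, 746 and 733 CPM in the libraries of day 0, 545, 188 and 420.4 CPM at day 3, and 231, 260.5 and 227 CPM at day 6. Every library of day 3 and day 6 lay below every library of day 0, and the libraries of day 6 were close together, while those of day 3 were spread and reached below day 6. The log2 fold change was -1.70 ± 0.38 (SE) at day 6 against day 0, with an edgeR adjusted p of 0.00274. At day 3 it was -1.02 ± 0.37, which did not pass (edgeR adjusted p = 0.155). Day 6 against day 3 gave -0.68 ± 0.37 (edgeR adjusted p = 0.737).

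Of the 6 Dhx15 circRNAs, the circle of exons 2 to 3 held 96.2% of the reads. It is 630 nt long when spliced, all of it coding, and starts in the second of 14 exons of Dhx15-201. It had 843, 702 and 776 CPM at day 0, 507, 189 and 422 at day 3, and 216, 215 and 230 at day 6, the same order of groups as the host. Its log2 fold change at day 6 against day 0 was -1.81 ± 0.42 (edgeR adjusted p = 0.00551). The host kept its call in all 18 alternatives run and this circle in 16 of 17, the exception being DESeq2 on unfiltered rows, with an adjusted p of 0.833.

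Circles of cell cycle hosts were also lower on the later days. Summed over a list of 26 proliferation genes, 22 of them with circRNAs, levels ran from 11096 to 13256 CPM at day 0, 2767 to 3190 at day 3 and 1136 to 1821 at day 6. Kif20b, Ccnb1, Plk1 and Ncapg had no circRNA. This list was chosen with earlier results of these data known. Of 14 members tested, 7 fell at day 3 and 8 at day 6 (edgeR). Their part in the Dhx15 result was not tested.

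**Figure D2:**
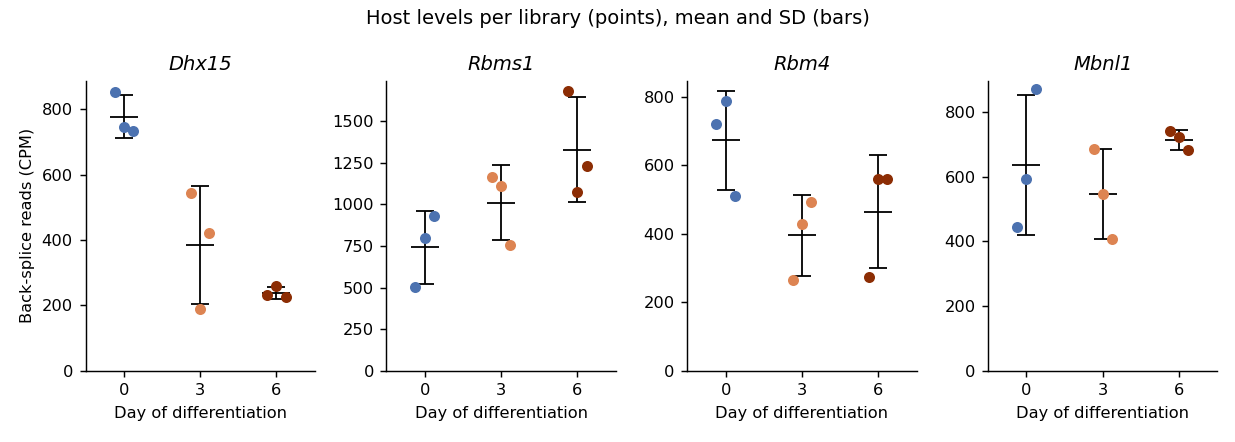
Back-splice reads (CPM) of 4 hosts against the day of differentiation, with 1 point per library and bars for the mean and SD of 3 libraries. Dhx15 libraries at day 6 sit between 227 and 260.5 CPM, below the 733 to 854 of day 0; Rbms1 libraries of day 6 sit above those of day 0, while Mbnl1 libraries overlap between days.

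The other hosts named Dhx did not pass in any comparison. Summed over all 15, levels were 1176 ± 139 CPM at day 0, 726 ± 290 at day 3 and 710.2 ± 16.3 at day 6 (mean ± SD of 3 libraries), and Dhx15 alone held 53.4% of the reads. Dhx35, a component of the active spliceosome, had 165, 105 and 94.0 CPM at day 0, 103, 125 and 38.0 at day 3 and 149, 128 and 101 at day 6, with overlapping groups. Dhx8, which releases spliced mRNA from the spliceosome, had no reads in any library of day 0. Like Dhx30 below, it was picked out after its values were seen. It was listed at 0, 41.7 and 55.5 CPM at day 3 and at 67.3, 0 and 49.2 at day 6, so both later groups also held a library at 0. Set against a floor of 3 reads per library of day 0, its mean was 3.05 times the floor at day 3. At day 6 it was 3.65 times the floor (edgeR adjusted p = 0.364 and 0.274). Since single reads are listed as 0, the floor is a reference level and the ratios are not bounds. Dhx30, known for its part in mitochondrial ribosome assembly, was likewise at 0 throughout day 0 and had 57.7, 0 and 112 CPM at day 6.

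Hosts named Ddx were the most numerous family, with 26 hosts and 101 circRNAs, and 0 of the 12 tested passed in any comparison. Their sum was 1577 ± 198 CPM at day 0, 1145 ± 382 at day 3 and 1102 ± 330 at day 6 (mean ± SD of 3 libraries). Ddx17, a helicase known as a coregulator of MyoD and of splicing, led with 34.2% of the family's reads. Its level was 668, 328 and 451 CPM at day 0, 177, 685 and 648 at day 3 and 351, 158 and 407 at day 6. Libraries of 1 day differed by up to several fold, replicate 1 of day 3 being far below the other two, and all 3 groups overlapped.

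The leading Ddx17 circle, exons 2 to 4, is in circBase, a catalogue of circRNAs, and measured 572, 312 and 322 CPM at day 0, 148, 589 and 528 at day 3 and 247, 77.1 and 286 at day 6. Every library of day 6 was below every library of day 0, but the difference did not pass (log2 fold change -0.98 ± 0.52, edgeR adjusted p = 0.354).

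Ddx42 and Ddx46, both tied to the U2 snRNP of the spliceosome, lay at 75.2 to 211 and 31.2 to 173 CPM at day 0 and at 136 to 226 and 98.2 to 208 CPM at day 6. Ddx31 and Ddx27 work in ribosome assembly. Ddx27 had 88.6, 203 and 226 CPM at day 0 and 81.7, 76.9 and 37.5 at day 6, groups that did not overlap, yet the log2 fold change of -1.40 ± 0.98 did not pass (edgeR adjusted p = 0.508). Ddx31 ranged from 50.8 to 201 CPM at day 0 and from 0 to 220.0 at day 6. Ddx39b, which loads mRNA for export, was also picked out after its values were seen. It had 65 reads in all: 67.9, 0 and 109 CPM at day 0, 0, 0 and 38.0 at day 3, and 0 in each library of day 6. Reads of near-identical copies such as Ddx39 and Ddx39b could have been split by the counting, which the sources used here do not describe.

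The RBM hosts carried 43.9% of the reads of the set, and their sum was 3713 ± 610 CPM at day 0, 3735 ± 166 at day 3 and 3964 ± 218 at day 6 (mean ± SD of 3 libraries). Rbms1, whose protein binds single-stranded DNA and RNA, came closest to passing after Dhx15. It had 502, 797 and 929 CPM at day 0, 1164, 1112 and 753 at day 3 and 1682, 1072 and 1231 at day 6. All libraries of day 6 lay above all of day 0, and day 3 overlapped both. The log2 fold change at day 6 was 0.84 ± 0.27, just outside the threshold (edgeR adjusted p = 0.0596).

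In most of the alternatives run that Rbms1 value did not pass. The edgeR adjusted p was 0.094 with RLE factors, 0.121 with library totals, 0.0817 with a minimum count of 10 and 0.141 with only the 2 groups. It passed with DESeq2 on filtered (adjusted p = 0.0270) and unfiltered rows (0.0330) and in edgeR with a replicate block (0.0452). It also passed in edgeR without replicate 3 of day 0 (adjusted p = 0.0336), replicate 2 of day 3 (0.0366) or replicate 2 of day 6 (0.0243). Without replicate 1 of day 0 the edgeR adjusted p was 0.324, with a log2 fold change of 0.60, and without replicate 1 of day 6 it was 0.325, with 0.64. Within the host, the circle of exons 3 to 6 had 303, 355 and 541 CPM at day 0, 697, 585 and 504 at day 3 and 1011, 771 and 705 at day 6. Day 6 was above both earlier days in every library. The log2 fold change at day 6 against day 0 was 1.05 ± 0.35 (edgeR adjusted p = 0.128).

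The other main Rbms1 circles did not show this order. The circle of exons 2 to 6 had 65.6, 197 and 139 CPM at day 0 and 157, 118 and 225 at day 6, and that of exons 2 to 4 had 144, 235 and 191 at day 0 and 265, 109.5 and 94.7 at day 6. As a share of the host, the circle of exons 2 to 4 made up 25.0% of reads at day 0 (19.4 to 29.9% in single libraries), 9.05% at day 3 (0 to 12.5%) and 11.2% at day 6 (7.60 to 16.9%). These shares are a description and were not tested.

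Rbm33 had the most reads of all hosts in the set, with 2969. It stood at 966, 922 and 1226 CPM at day 0, 1293, 1046 and 1375 at day 3 and 1201, 773 and 1114 at day 6, with no separation of days, and the interval of its log2 fold change at day 6 ran from -0.51 to 0.49. Most of its reads came from 2 stretches of the gene: circles that start at exon 2 and end at exon 5 or 6, and circles that start at exon 8 and end at exon 10 or 9. These 4 circles had 1030, 577, 863 and 417 reads. The circle of exons 8 to 10 is in circBase.

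Rbm4, a regulator of splicing and translation, had 721, 789 and 512 CPM at day 0, 264, 427 and 493 at day 3 and 274, 559 and 559 at day 6. The libraries of day 3 were all below those of day 0, but the log2 fold change of -0.77 ± 0.35 did not pass (edgeR adjusted p = 0.329). The leading circle, chr19:4784724-4788042 on the minus strand, held 79.1% of its reads and is in circBase. Its lower end lies at no annotated exon edge and its upper end at an exon edge shared by Rbm4 and the overlapping gene model Gm21992, so its host is uncertain, and the handling of reads from the similar gene Rbm4b is not given in the sources used here.

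Further RBM hosts kept overlapping groups at day 6 against day 0: Rbm27 at 100.4 to 316 and 227 to 370.1 CPM, Rbm41 at 176 to 266 and 106 to 332, and Rbms3 at 176 to 323 and 197 to 231. Rbm6, a splicing regulator, was at 0 in 1 library of day 0 and 1 of day 6 and at 139 to 170.3 CPM at day 3. Rbm25, also a splicing regulator, had 168 reads and was chosen here after its values were seen. It had 82.7, 168 and 184 CPM at day 0, 25.8, 86.9 and 32.1 at day 3 and 0, 17.1 and 0 at day 6. The groups of day 0 and day 6 did not overlap, edgeR did not call the difference (adjusted p = 0.133), and DESeq2 did (adjusted p = 0.00342). Of the edgeR alternatives only the one without replicate 2 of day 6 called it (adjusted p = 0.0251). That replicate was the only library of day 6 with Rbm25 reads, so leaving it out emptied the group and adds no separate support.

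The Rbms3 circle that DESeq2 called, exons 5 to 10 at chr9:116678647-116822896, was likewise picked out after its values were seen. It had no reads in the libraries of day 0, then 9, 19 and 4 reads at day 3 and 17, 11 and 26 at day 6. With edgeR its adjusted p at day 6 against day 0 was 0.340, and with DESeq2 it was 0.0320.

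**Figure D3:**
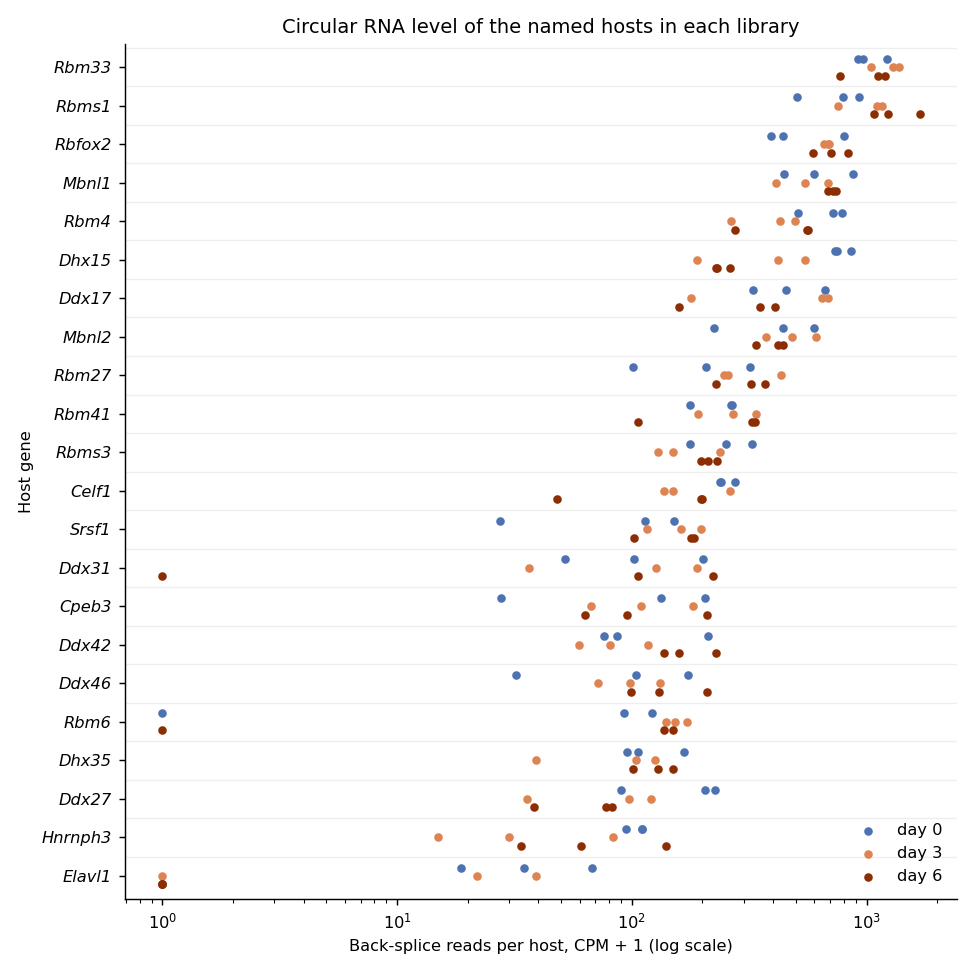
Back-splice reads of the 22 named hosts (CPM + 1, log axis) with 1 point per library, blue for day 0, orange for day 3 and brown for day 6, ordered by total reads. In the row of Dhx15 all points of day 6 lie to the left of those of day 0; hosts with fewer reads, at the bottom, spread more within a day, and points at 1 are libraries with no listed reads.

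Regulators of muscle splicing gave some of the most abundant circles, and 0 of their 5 tested hosts passed. Mbnl1, the muscleblind protein that drives adult splicing patterns in muscle, had 446, 594 and 873 CPM at day 0, 687, 546 and 409 at day 3 and 740.1, 722 and 681 at day 6. Day 6 lay inside the range of day 0, and the interval of the log2 fold change ran from -0.46 to 0.79. Its circle of exons 3 to 4, of 372 nt and wholly coding, held 60.6% of the reads.

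Mbnl2 had 440.1, 594 and 222 CPM at day 0, 606, 480 and 374 at day 3 and 336, 440 and 419 at day 6, again overlapping. Its leading circle is the single exon 2, of 619 nt, with 174 nt of coding sequence. That circle had 206, 355 and 95.5 CPM at day 0, 456, 393 and 361 at day 3 and 180, 288 and 286 at day 6. All libraries of day 3 were above those of day 0 and day 6, and the difference from day 0 did not pass (log2 fold change 0.88 ± 0.53, edgeR adjusted p = 0.456).

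Rbfox2 made more kinds of circle than any other host here, 25 circRNAs with 1736 reads. It had 798, 391 and 440.1 CPM at day 0, 690.1, 685 and 660 at day 3 and 836, 589 and 702 at day 6. Replicate 1 of day 0 lay among the later libraries and the other two below them. The log2 fold change was 0.32 ± 0.30 at day 3 and 0.38 ± 0.31 at day 6 (edgeR adjusted p = 0.854 and 0.612). Its leading circle of exons 3 to 5 had 178, 88.7 and 123 CPM at day 0, 196, 298 and 232 at day 3 and 193, 272 and 194 at day 6, so every later library was above day 0, without passing (log2 fold change 0.75 ± 0.64 at day 6, edgeR adjusted p = 0.713).

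Celf1, which opposes Mbnl1 on many muscle exons, had 236, 238 and 275 CPM at day 0, 261, 136 and 149 at day 3 and 197, 47.0 and 199 at day 6. The groups of day 0 and day 6 did not overlap, and the log2 fold change of -0.75 ± 0.64 did not pass (edgeR adjusted p = 0.658).

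SR and hnRNP hosts had few reads, and 0 of the 2 and 6 tested passed. Srsf1, the best known SR protein, had 151, 113 and 26.3 CPM at day 0, 161, 115 and 196 at day 3 and 101, 184 and 178 at day 6, with overlapping groups. One end of its leading circle, chr11:88049977-88053039 on the plus strand, lies at no annotated exon edge. Srsf4, picked out after its values were seen, had 90 reads, all of them in 2 libraries of day 0, and did not pass the filter.

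Summed over the 12 hnRNP hosts, levels were 343, 480.4 and 320 CPM at day 0, 274, 351 and 245 at day 3 and 139, 72.6 and 124 at day 6. The libraries of day 6 were all below those of the earlier days, also when scaled by the plain library totals, where they ran from 69.8 to 139 against 322 to 534 at day 0. The sum has no test of its own. Hnrnph3, the largest of them, had 109, 93.7 and 109 CPM at day 0, 29.0, 13.9 and 81.7 at day 3 and 139, 59.8 and 32.8 at day 6. Hnrnpul1 and Hnrnpa2b1 were at 0 in every library of day 6, with 56 and 45 reads in all. Both were picked out after their values were seen. Their means at day 3 were 3.23 and 3.81 times the floor of 3 reads per library of day 6 (edgeR adjusted p = 0.737 for both, day 6 against day 3).

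Among hosts that act on mRNA in the cytoplasm, 0 of 3 tested passed. Elavl1, the Hu protein that stabilises mRNAs with AU-rich elements, had 17.7, 66.4 and 33.9 CPM at day 0, 0, 20.9 and 38.0 at day 3 and 0 in each library of day 6. Its mean at day 0 was 3.44 times the floor of day 6 (edgeR adjusted p = 0.275, day 6 against day 0), from 51 reads in all. Cpeb3, a regulator of translation through the poly(A) tail, ranged from 26.6 to 203 CPM at day 0, 66.0 to 181 at day 3 and 62.5 to 208 at day 6, and the interval of its log2 fold change at day 6 ran from -1.82 to 1.87.

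Absence of reads was common: 13 of the 89 hosts had none at day 0, 26 none at day 3 and 34 none at day 6. Of the 89 hosts, 46 had reads at all 3 time points, 20 were listed at day 0 only, 5 at day 3 only and 5 at day 6 only. None of the hosts listed on a single day passed the filter. The same counts were not made over all 6943 hosts, so whether they are particular to this set was not tested. Depth also differed, from 208787 reads in replicate 1 of day 6 to 443955 in replicate 3 of day 6. A circle with 1 read in a library is listed there as 0, since the smallest count above 0 is 2.

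The make-up of the circles is given beside that of the whole table. Of the 423, 391 were exonic and 32 intronic, and 0 lay on the strand opposite to the host. Both ends lay at exon edges of 1 annotated transcript for 345 exonic circles, which held a median of 5 exons and 565 nt, against 4 exons and 586 nt in all circRNAs. They started at exon 2 in 27.5% of cases, against 24.1%, were wholly coding in 82.3%, against 85.5%, and held the start codon in 15.4%, against 12.3%. The intron before the circle had a median of 3262 nt, against 4858 nt. Among the 13 of the 15 named circles with such a transcript it was 13700 nt, and 7 of the 13 started at exon 2. The 13 are not independent, as Rbm33 and Rbms1 each gave several, some with the same intron before them. They are also the circles with most reads. Among all circRNAs listed in 2 or more libraries the median intron before the circle was 7093 nt. These values are descriptions with no test.

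**Figure D4:**
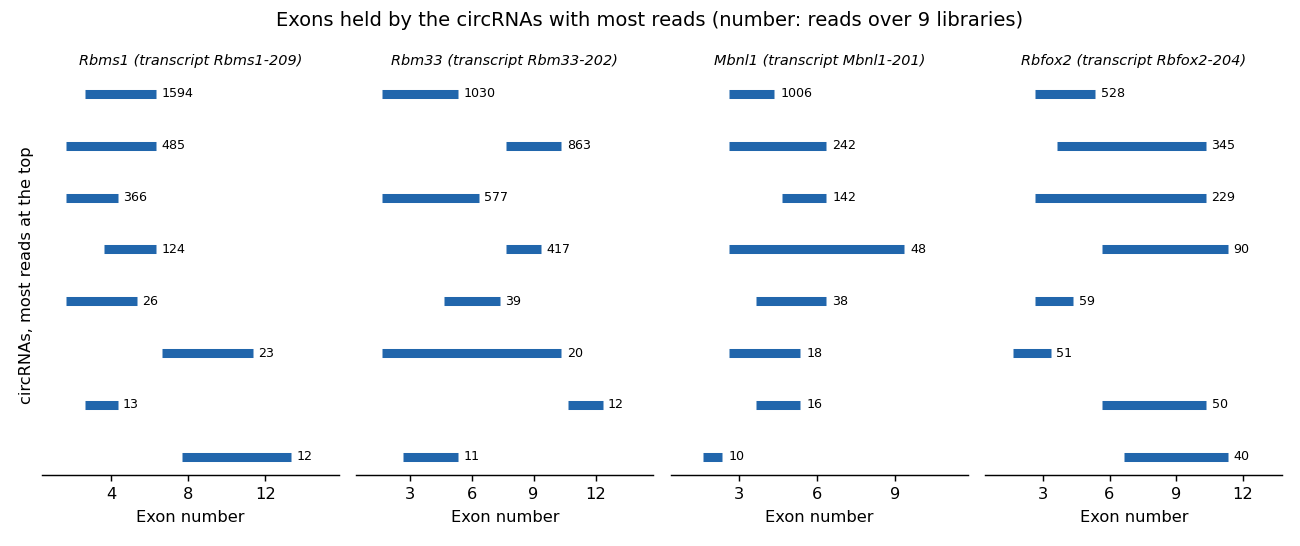
Exons held by up to 8 circRNAs with the most reads of Rbms1, Rbm33, Mbnl1 and Rbfox2, drawn as bars on the exon numbers of the transcript named above each panel, with reads over the 9 libraries beside each bar. The leading circles start at exon 2 or 3 in all 4 hosts; Rbm33 has a further group from exon 8, with 863 and 417 reads.

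Few circles were seen in every library. Of the 423, 267 (63.1%) were listed in 1 library, against 61.4% of all circRNAs, and 20 (4.73%) in all 9, against 3.95%. Those 20 held 54.1% of the reads of the set, and the circles in all 9 libraries held 60.2% of reads in the whole table. In circBase 11 of the 423 were found.

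The leading circle's share was followed in the 15 named hosts with at least 10 reads in every library. Its values did not overlap between day 0 and day 3 in 3 hosts, Rbfox2, Mbnl2 and Dhx35, between day 0 and day 6 in 1, Dhx35, and between day 3 and day 6 in 3, Ddx17, Mbnl2 and Rbm41. Over all 1183 hosts with at least 10 reads in every library, the values did not overlap in 14.4, 14 and 9.64% of hosts. The Mbnl2 circle of exon 2 made up 44.3, 60.5 and 40.7% of its host's reads at day 0, 75.5, 81.2 and 96.1% at day 3 and 57.1, 68.9 and 67.6% at day 6. For Dhx35, the circle of exons 9 to 12 made up 41.1, 22.2 and 60.0% at day 0, 100, 66.7 and 100% at day 3 and 100, 93.3 and 83.7% at day 6, where the lowest library had 13 reads of the host. The shares have no test, and with few reads a share moves in large steps.

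**Figure D5:**
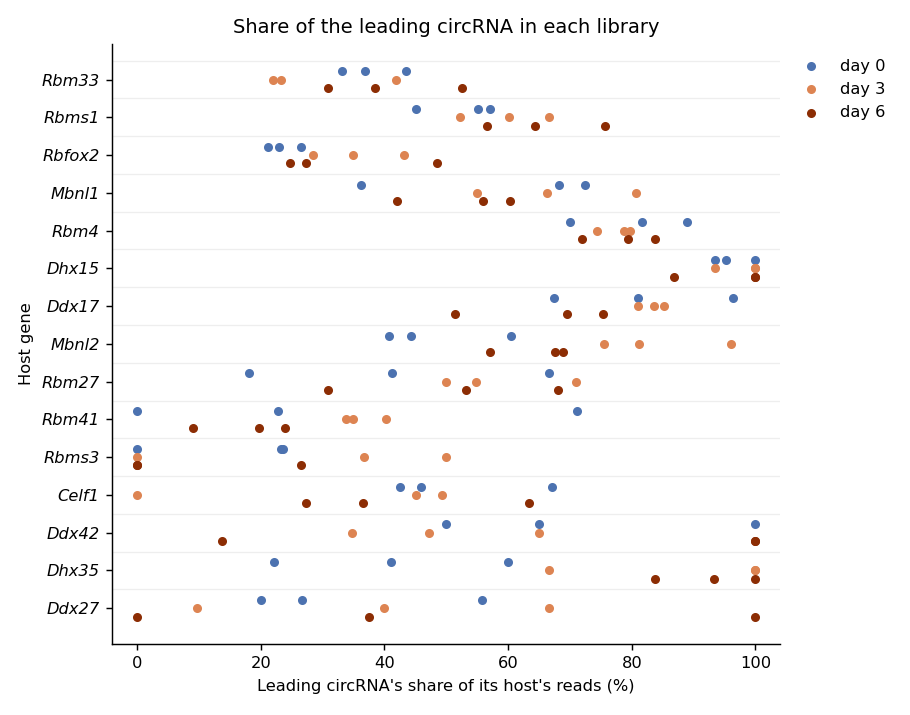
Share (%) of each host's back-splice reads held by its leading circRNA, with 1 point per library, in blue for day 0, orange for day 3 and brown for day 6, for the 15 named hosts with at least 10 reads in every library. Dhx15 stays between 86.9 and 100%, while the points of Rbm33 spread from 21.9 to 52.5% and overlap between days.

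Other proteins of the same pathways, outside these names, were read from the same edgeR fit. Of all hosts tested, 3.96% passed at day 3 and 5.66% at day 6, both against day 0. The median log2 fold changes of all hosts tested were -0.02 and -0.13. Of 22 other RNA helicases 15 had circRNAs and 8 were tested, with 1 higher and 0 lower at both later days in edgeR. That was Ascc3, a helicase of the ribosome and DNA repair machinery, at 2124 ± 397 CPM at day 0, 3806 ± 132 at day 3 and 3169 ± 349 at day 6 (mean ± SD of 3 libraries; edgeR adjusted p = 0.00213 and 0.0472). The median log2 fold change of the 8 was -0.16 at day 3 and -1.16 at day 6, but the summed level of the list was higher on both later days. It ran from 3009 to 3976 CPM at day 0, 4952 to 5109 at day 3 and 4052 to 4432 at day 6.

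Of 50 other splicing proteins 28 were tested. At day 3, 1 rose and 1 fell, and at day 6, 0 rose and 1 fell. Cpsf6, a factor in the choice of poly(A) sites, fell from 721 ± 239 CPM at day 0 to 289.9 ± 31.4 at day 3 and 278 ± 121 at day 6 (mean ± SD of 3 libraries; edgeR adjusted p = 0.0491 and 0.0299). Raly, an hnRNP-like protein, had no reads at day 0 and 142 at day 3 (edgeR adjusted p = 0.0282). The medians of this list were -0.36 and -0.96. Its summed level was lower on the later days too, at 4499 to 5364 CPM at day 0, 2984 to 4417 at day 3 and 3167 to 3519 at day 6.

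Of 46 other proteins of mRNA stability and translation 28 were tested, with medians of -0.38 and -0.69. One rose at both days, Stau2, which binds double-stranded RNA and carries mRNA, from 323 ± 267 CPM to 1198 ± 314 and 1384 ± 84.0 (mean ± SD of 3 libraries; edgeR adjusted p = 0.00742 and 0.00209). The summed level of the list did not follow its medians. It ran from 13869 to 14741 CPM at day 0, 14245 to 16940 at day 3 and 14144 to 15846.5 at day 6.

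The labels were set beside circles of marker genes. These lists were chosen with earlier results of these data known, so this is a description and not an independent check. Of 25 muscle genes 17 had circRNAs, and their sum ran from 857 to 948 CPM at day 0, 11806 to 12919 at day 3 and 14151 to 17993 at day 6. Ttn alone gave 7463 of the mean of 12507 CPM at day 3 and 9119 of 16574 at day 6. Of 12 tested, 5 rose at both days, and Myog, Myod1 and 6 other listed genes had no circRNA. Adipocyte, osteoblast and reserve cell lists had 1, 2 and 4 tested hosts, of which 0 passed in any comparison in edgeR. Most of their defining genes, such as Adipoq, Sp7 and Calcr, had no circRNA.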

How the data were processed

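The authors deposited 1 table that holds, for each circRNA, its position, type and host gene and the raw count of back-splice reads in every library. Per the submitters' processing notes, BWA and the mouse build GRCm38.p4 (mm10) were used, and per the labels' protocols total RNA was cleaned with a bead kit and DNase and made into libraries with an mRNA-seq kit. The caller, its filters, strand and the treatment of duplicate reads were not given in the sources used here.

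Exon edges of GENCODE M21 (GRCm38) matched 92.8% of exonic starts and ends at an offset of 0 bp, against 0.191 to 0.294% at 1 bp to either side, and symbols came from that annotation. Counts were summed per host and tested with edgeR 4.0.16 (R 4.3.3): quasi-likelihood F-test, TMM factors on library totals, filterByExpr (minimum count 5, minimum total 15), all 9 libraries, no block, prior count 0.125, Benjamini-Hochberg adjustment over all 4115 hosts or 8153 circRNAs. The SE is the absolute log2 fold change over the square root of F. Named were the 20 hosts with most reads, the first host of each family and called hosts (22), and likewise 15 circRNAs. Further hosts described were picked outside this rule after their values were seen. Members and lists were chosen with earlier results of these data known. PCR reads without molecular identifiers are not independent molecules, so floors cover counting error at most. As single reads are listed as 0, floors are reference levels and not bounds.

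On simulated counts with a dispersion per feature, for day 3 against day 0, the filter kept 3328 hosts. Among them were 39, 40, 34 and 40 hosts changed 2, 4, 8 and 16-fold. Of these kept hosts 2.56, 20, 41.2 and 55% were recovered, and changed hosts that the filter dropped are not counted. For kept circRNAs the values were 0, 8.82, 32.3 and 40%. An earlier version of that simulation, with 1 common dispersion for all features, recovered almost no changed features. The simulation, not the test, was then changed. DESeq2 1.42.0 was first run on unfiltered rows. After its result was seen it was run on the rows edgeR kept, which is the DESeq2 result given, and both are in the closing section.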

Additional observations from a re-analysis of the deposited data

How the results depend on the processing

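The call of Dhx15 at day 6 against day 0 held for the host in all 18 alternatives (log2 fold change -1.83 to -1.65). Its circle kept it in 16 of 17 (-1.88 to -1.76). The number of hosts called at day 3 against day 0 moved from 0 to 1 with DESeq2 on filtered rows and to 1 on unfiltered rows. At day 6 against day 0 it moved from 1 to 3 with DESeq2 on filtered and to 3 on unfiltered rows, to 2 with the replicate block, and between 1 and 3 when single libraries were left out. It was 2 without replicate 3 of day 0, 2 without replicate 2 of day 3 and 3 without replicate 2 of day 6. For circRNAs, DESeq2 on filtered rows gave 1 at day 3 and 3 at day 6 against day 0, and on unfiltered rows, an alternative kept after seeing the data, 0 at day 6. The cause was not tested. RLE factors, library totals, a minimum count of 10, no filter, only the 2 groups compared and, for hosts, exonic circRNAs alone left these counts within 1.5 times, as did every alternative for day 6 against day 3.

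Libraries with the same replicate number did not deviate together (correlations of -0.033 to -0.001 for hosts and -0.031 to 0.010 for circRNAs). Many features had few reads, and counting noise lowers such correlations. This check therefore cannot tell whether libraries with equal numbers share a culture. The call that the block added was Rbms1, with an edgeR adjusted p of 0.0452. For the named hosts and circRNAs, 1822 alternative values kept direction and side of the threshold, 118 values not called changed sign, 10 passed newly and 1 ceased to pass. With 3 libraries per group, 40 hosts did not pass the filter, which asks for a minimum level in enough libraries. Untested hosts had up to 90 reads in all, and tested hosts as few as 33.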
